A study of Caenorhabditis elegans with 2 samples.

Results

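HLH-11 binding was described at 8 genes of Caenorhabditis elegans that encode the subunits of the DREAM complex, lin-9, lin-35, lin-37, lin-52, lin-53, lin-54, efl-1 and dpl-1, out of 19973 protein-coding genes on the nuclear chromosomes. The genes were chosen by name, as subunits of one complex, with the peak signals of HLH-11, in particular the strong peak at lin-9, already known. Their peak signals and ranks are therefore a description and were not tested. HLH-11, a transcription factor of the basic helix-loop-helix class related to AP-4 of mammals, carried a GFP-FLAG tag at its C-terminus, and ChIP-seq (sequencing of chromatin fragments pulled down with an antibody, here against GFP) located it. The worms, strain OP396, carry the tagged hlh-11 as the transgene wgIs396 on a unc-119(tm4063) background, and both replicates share this genotype. Chromatin came from whole L4 larvae of pooled sexes with a labelled age of 53 hours, synchronised by bleaching and starvation at the L1 stage. The labels do not name the promoter that drives the transgene, and chromatin of all tissues is mixed, so the cells in which a peak arose cannot be told. The 2 biological replicates form 1 group, so no conditions were compared.

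DREAM joins an E2F and DP pair and an Rb-like pocket protein to a core of MuvB subunits, and it is best known for keeping cell cycle genes repressed in cells that are not dividing. In the worm its genes were found as class B synthetic multivulva (synMuv B) genes, whose loss, together with loss of a class A gene, lets extra cells adopt vulval fates. LIN-35 is the only pocket protein of the worm. LIN-54 touches DNA at the cell cycle homology region (CHR) sequence and EFL-1 with DPL-1 at E2F sites.

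Tagged HLH-11 had a peak summit within 1000 bp upstream of the start of 6 of the 8 DREAM genes, at very different ranks. Some of these peaks lay nearer to the start of another gene. With each peak given to the nearest start alone, 4 DREAM genes kept one, beside 22.3% of all protein-coding genes. The peak near lin-9, which encodes a scaffold subunit of the MuvB core, was among the strongest of the genome, with a signal of 2133 and rank 18 of 7863. Signal is the value given for each peak in the authors' lists, on a scale that is not stated. It is used here only to rank peaks within a list, and rank 1 is the highest. The next strongest were at lin-54 (signal 1007, rank 181), lin-53 (685, rank 451), lin-35 (468, rank 952), efl-1 (321, rank 1770) and lin-52 (289, rank 2091). In contrast, lin-37 and dpl-1 had no peak in the thresholded list. That list holds the 7863 peaks of the pooled replicates that passed the authors' irreproducible discovery rate (IDR) step, and they are the 7863 strongest of the 30000 pooled peaks. A thresholded summit lay between 3000 bp upstream of the most upstream annotated start and the gene end, called the gene window, at 6 of the 8 genes, beside 32.4% of all protein-coding genes. A summit lay in the promoter window, 1000 bp upstream to 500 bp downstream of any start, at 6 of 8, beside 21.3% of all protein-coding genes. Because the genes were selected on these peaks, nothing is read from either difference. With genes that lack a summit placed last, the median best rank was 1361 over the 8 genes, while 67.6% of all protein-coding genes had no thresholded summit in the window. The windows of the 8 genes had a median length of 5507 bp, against 5027 bp over all protein-coding genes.

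**Figure D1:**
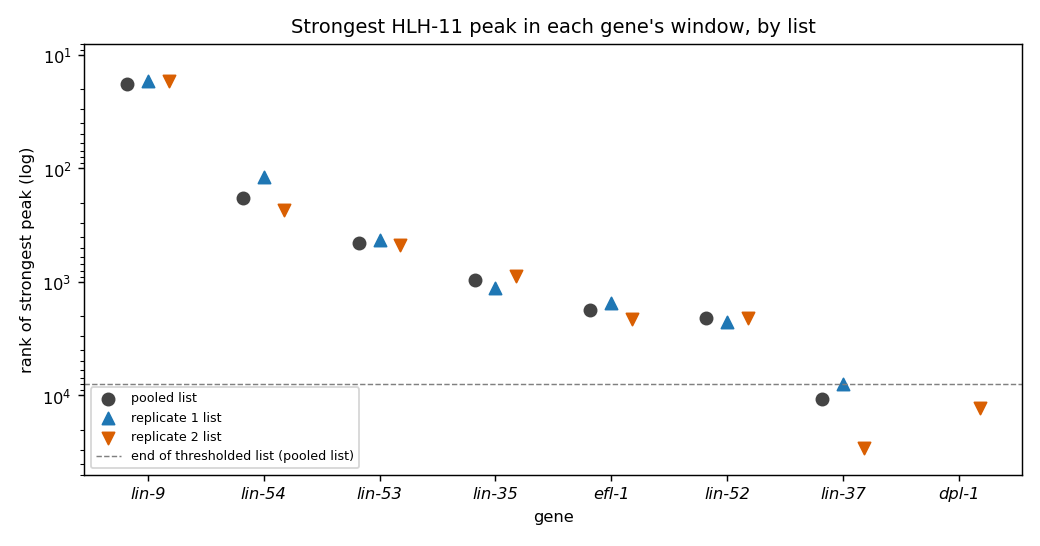
Rank of the strongest HLH-11 peak in the window of each DREAM gene (vertical axis, log scale, rank 1 at the top) in the pooled list and in each replicate list; 1 symbol stands for 1 peak. The lin-9 peak ranked 18 in the pooled list and 17 in both replicates, lin-37 lay below the thresholded peaks of the pooled list, and dpl-1 had peaks in replicate 2 alone.

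The strongest summits of lin-9, lin-54, efl-1 and lin-52 differed in the sequence matches near them, and those of lin-53 and lin-35 are not drawn. Their sequences are shown because relatives of HLH-11 bind E-boxes (CANNTG), while DREAM itself binds E2F-type and CHR-type sequences. Each is read 5' to 3' on the strand of the DREAM gene, so that its start lies beyond the right end, and reaches 50 bp to either side of the summit in the RefSeq genome of WBcel235, the same build as ce11. The lin-54 window stops at the first base outside the neighbouring gene rpl-12. Capitals mark E-boxes, E2F-type sequences (TTCCCGC or TTGGCGC) and CHR-type sequences (TTTGAA or TTCGAA) on either strand.
lin-9, chrIII:8904257-8904357, minus strand: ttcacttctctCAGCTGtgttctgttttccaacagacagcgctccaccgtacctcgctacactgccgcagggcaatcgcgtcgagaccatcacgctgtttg
lin-54, chrIV:13240652-13240732, plus strand: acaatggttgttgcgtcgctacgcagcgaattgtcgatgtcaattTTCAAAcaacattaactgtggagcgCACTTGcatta
efl-1, chrV:16965805-16965905, minus strand: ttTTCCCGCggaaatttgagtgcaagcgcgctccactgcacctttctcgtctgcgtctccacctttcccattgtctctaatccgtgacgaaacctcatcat
lin-52, chrIII:9826168-9826268, minus strand: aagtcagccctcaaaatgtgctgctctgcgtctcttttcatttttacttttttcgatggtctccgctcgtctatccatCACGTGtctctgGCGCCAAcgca

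The AP-4 type E-box, CAGCTG, was found at the strong lin-9 peak and at none of the other 10 DREAM peaks. It occupies positions 8904341 to 8904346 of chromosome III, 34 bp from the summit on the side away from the gene. The lin-52 summit had CACGTG, the form of E-box that Myc and Max proteins bind, 28 bp away, and TTGGCGC 40 bp away. The efl-1 summit had the E2F-type TTCCCGC 42 bp away and no E-box, and the lin-54 summit had a CHR-type sequence at 15 bp and the E-box CACTTG at 40 bp. Of the summits not drawn, that of lin-53 had a CHR-type sequence at 39 bp and no E-box. The strongest lin-35 summit had the E-box CAAATG at 32 bp. Over the 11 thresholded peaks in the DREAM windows, 1 held CAGCTG, beside 4.34% of all thresholded peaks, and 1 held CACGTG, beside 5.84%. An E-box of any kind was within 50 bp of the summit in 7 of 11, beside 44.1% of all thresholded peaks. With a reach of 25 bp in place of 50 bp, CAGCTG was found in 0 of the 11 peaks, beside 2.07% of all thresholded peaks, and any E-box in 2, beside 24.9%. E2F-type sequences were found in 2 of 11 (beside 4.1%) and CHR-type sequences in 2 of 11 (beside 16.2%). The GATA-type sequences CTTATC or TGATAA, the core of sites for GATA factors, were found in 1 of 11, beside 28.2%. A match shows the letters in the window, not a bound site. The GC content within 50 bp of the summit ran from 38.6% to 57.4% with a median of 45.5%, against a median of 43.6% over all thresholded peaks.

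At lin-9 (WBGene00002998, chromosome III, 8900237 to 8904131, minus strand), the strong peak spans 8904058 to 8904526. Its summit lay 176 bp upstream of the start, in intergenic sequence. The signal was 2133 in the pooled list, 922 in replicate 1 and 1216 in replicate 2, and signals of different lists are on scales that cannot be compared. The rank was 17 in both replicates, and the replicate summits lay 5 and 3 bp from the pooled one. Among all protein-coding genes 15, or 0.0751%, had a promoter summit of that rank or better. The peaks ranked just above it were nearest to the starts of the Hsp70-type chaperone gene F44E5.4 (rank 16, signal 2152, 172 bp upstream) and of Y111B2A.12 (rank 17, signal 2150, 3369 bp downstream). Those just below were nearest to epn-1, which encodes an epsin of endocytosis (rank 19, signal 2113, 459 bp upstream), and to bcat-1, whose enzyme acts on branched-chain amino acids (rank 20, signal 2006, 5018 bp upstream). The next DREAM gene by rank was lin-54, at rank 181.

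The lin-9 window held 2 weak thresholded peaks besides. One at 8905130 to 8905553 (signal 146, rank 4992) had its summit 1211 bp upstream of lin-9. It lay closer to the divergent gene unc-32, which encodes a subunit of the vacuolar proton pump, at 273 bp upstream of its start. The other, at 8901049 to 8901472 (signal 152, rank 4786), lay in an intron of lin-9, 2870 bp downstream of the start, and was the only one of the 11 peaks in no other protein-coding gene's window. Both were placed higher in replicate 2 than in replicate 1, at ranks 4289 and 4218 against 7404 and 6361. In each replicate the upstream signal was called as 2 overlapping peaks. Their summits were 1084 and 1287 bp upstream of lin-9 in replicate 1, at ranks 6088 and 7404. In replicate 2 they were 1181 and 1386 bp upstream, at ranks 4289 and 28481.

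lin-54 (WBGene00003037, chromosome IV, 13241044 to 13243401, plus strand) encodes the DNA-binding subunit of the MuvB core. Its 1 peak, at 13240469 to 13240853, had a summit 362 bp upstream of the lin-54 start and 31 bp upstream of the start of rpl-12, a ribosomal protein gene transcribed in the other direction. The signal was 488 in replicate 1 and 523 in replicate 2, and the rank was 118 and 232. The summit was at the same base in replicate 1 and 8 bp away in replicate 2. No other peak of any of the 4 lists lay in the lin-54 window. By position this peak cannot be given to either gene, and rpl-12 is the nearer.

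lin-52 (WBGene00003035, chromosome III, 9824083 to 9824750, minus strand) encodes a small MuvB subunit that in mammals links the core to the pocket protein. It had the most pooled peaks of the 8 genes, 5, of which 3 were thresholded, in the shortest window, 3668 bp. The strongest, at 9826128 to 9826332, lay 1468 bp upstream in intergenic sequence, with ranks 2267 and 2097 in replicates 1 and 2. The second (signal 156, rank 4661) lay 757 bp upstream of lin-52 but 75 bp upstream of ZK632.9, the gene between it and lin-52 on the same strand. The last (signal 126, rank 5820) lay 2580 bp upstream in the 5' UTR of ZK632.10. All 3 were therefore nearer to a start of another gene than to that of lin-52. A weaker summit stood 6 bp inside the lin-52 start in the pooled list, at rank 9514 and so below the thresholded peaks. Replicate 1 had a summit there, 1 bp inside the start at rank 6772, and replicate 2 had none within the gene.

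**Figure D2:**
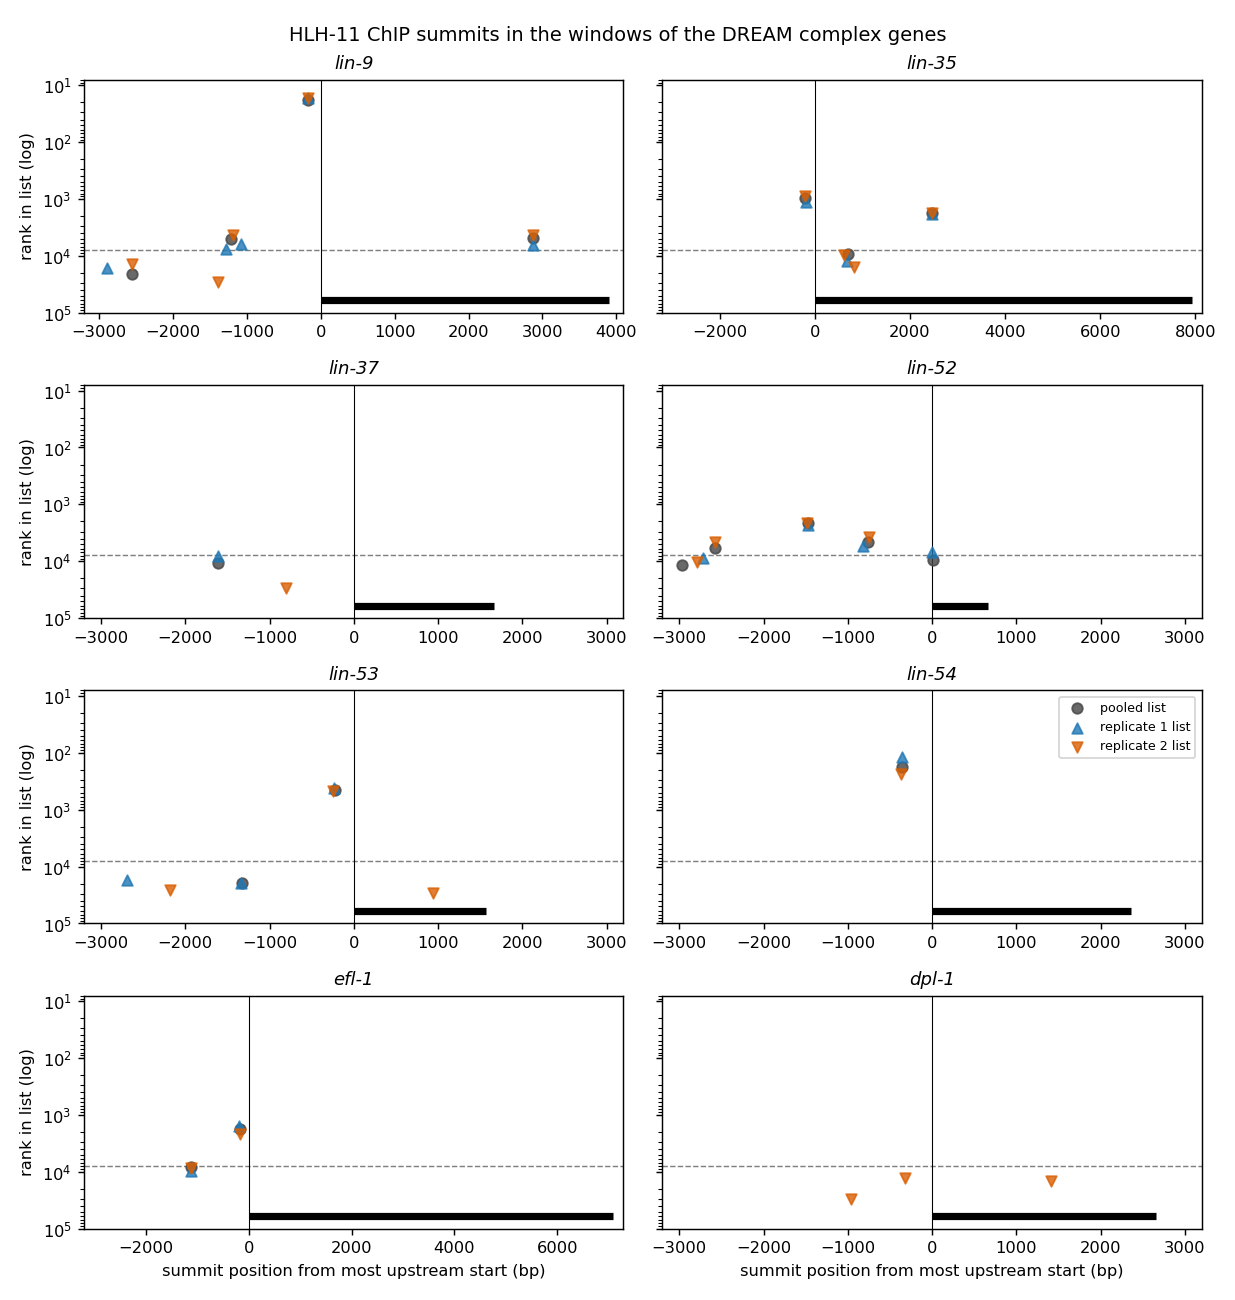
Summits of the pooled and replicate lists in the window of each DREAM gene, by position from the most upstream start in bp (horizontal axis, upstream negative) and rank in the list (vertical axis, log scale, rank 1 at the top); the black bar is the gene and the dashed line the rank of the last thresholded peak, 7863. The 3 lists overlie each other at the strongest summit of 6 genes, while summits below the line often appear in 1 list alone.

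lin-53 (WBGene00003036, chromosome I, 9618196 to 9619760, minus strand) encodes a histone-binding WD40 protein of the RbAp46/48 family that also serves in other chromatin complexes. Its 1 thresholded peak, at 9619829 to 9620162, had a summit 224 bp upstream of lin-53 and 243 bp upstream of the divergent gene nra-2, close to midway between them. The signal was 302 and 387 and the rank 424 and 472 in replicates 1 and 2. In replicates 1 and 2 the summit was 234 and 246 bp from the lin-53 start and 233 and 221 bp from that of nra-2. The closely related gene rba-1 follows lin-53 on the same strand, and its start lay 1877 bp from this summit. Below the threshold, the pooled list had 1 more summit in the window, at rank 19416, in a coding exon of nra-2.

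lin-37 (WBGene00003022, chromosome III, 7070890 to 7072552, minus strand), which encodes a MuvB subunit needed for repression, had no thresholded peak. The pooled list held 1 peak in its window, at 7073950 to 7074373, with a signal of 59.8 and rank 10778. The summit lay 1610 bp upstream of lin-37 and 311 bp upstream of ZK418.5, the next gene upstream on the same strand. Replicate 1 had a summit 1615 bp upstream at rank 7987. Replicate 2 had none there, and its 1 peak in the window, 802 bp upstream in a coding exon of ZK418.5, ranked 29002 of 30000. In these lists, which end at 30000 peaks, the weak pooled peak thus had a partner in replicate 1 alone.

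lin-35 (WBGene00003020, chromosome I, 5807709 to 5815637, plus strand), the gene of the pocket protein, had 2 thresholded peaks that were each found in both replicates. The stronger, at 5807399 to 5807667, had a summit 201 bp upstream of lin-35 and 217 bp upstream of the divergent gene vps-51, which encodes a tethering factor of vesicle traffic. Its signal was 189 in replicate 1 and 280 in replicate 2, at ranks 1119 and 881. The other, at 5810038 to 5810224 (signal 325, rank 1736), lay in an intron, 2463 bp inside the gene, with ranks 1816 and 1775. That summit was also 170 bp upstream of C32F10.4, a gene nested in lin-35 on the other strand. A weaker summit, 696 bp inside the gene, stood at rank 9350 in the pooled list, with ranks 12398 and 9822 for the nearest summits of replicates 1 and 2.

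efl-1 and dpl-1 encode the E2F and DP partners, which bind DNA as a pair, and had unlike peaks. efl-1 (WBGene00001161, chromosome V, 16958590 to 16965675, minus strand) had a peak at 16965733 to 16965957 with its summit 180 bp upstream, in intergenic sequence. Its signal was 159 in replicate 1 and 161 in replicate 2, at ranks 1545 and 2122. The divergent F-box gene fbxa-90 starts 959 bp from that summit. A second efl-1 peak fell below the threshold in the pooled list (signal 84.4, rank 8167, 1133 bp upstream), with ranks 9557 and 8517 in the replicates. It lay 6 bp upstream of fbxa-90.

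At dpl-1 (WBGene00001061, chromosome II, 9169910 to 9172565, plus strand), neither the pooled list nor replicate 1 had a summit in the window. Replicate 2 had 3, at ranks 13002 (316 bp upstream), 14342 (1416 bp downstream) and 29878 (967 bp upstream). The gene T23G7.2 covers dpl-1 on the other strand, so these summits lie within it as well. The lists end at 30000 peaks, so weaker signal than their last peaks is not seen. The nearest thresholded summit beyond the window was 3685 bp upstream of dpl-1, with a signal of 137 and rank 5315, and ranks 5110 and 6222 in replicates 1 and 2. It lay in an intron of T23G7.3, 413 bp from the start of W07A12.8. Over the 8 genes this was the summit just outside the limit of 3000 bp, and the lin-52 summit at 2580 bp was the one just inside. With a reach of 5000 bp, 7 of 8 genes had a thresholded summit, beside 39.0% of all protein-coding genes.

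In the longer lists, which mix peaks with background, 7 of 8 genes had a summit in the pooled list (beside 55.3% of all protein-coding genes), 7 in replicate 1 (58.2%) and 8 in replicate 2 (59.6%). These lists held 18, 19 and 23 DREAM summits. At such shares a single low-ranked summit says little about a gene.

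Most DREAM peaks were found in both replicates, as were most thresholded peaks of the genome. When the 7863 highest peaks of each replicate were searched, 10 of the 11 thresholded peaks had a partner no more than 100 bp away in both, beside 78.6% of all thresholded peaks. The exception was the lin-52 peak in ZK632.10, for which replicate 2 had a summit at the same base at rank 4566 and replicate 1 had its nearest 136 bp away at rank 8931. The median distance from the pooled summit was 6 bp in replicate 1 (10 peaks) and 5 bp in replicate 2 (11 peaks), against 8 and 7 bp over the 7508 thresholded peaks found in both whole lists. Both replicates entered the pooled list, and the IDR step selects peaks for reproducibility between replicates. This match is therefore largely built in, and nothing particular to the DREAM peaks is read from it. The order of the strongest peaks was lin-9, lin-54, lin-53 and lin-35 in both replicates. The order of the last pair changed, with efl-1 before lin-52 in replicate 1 (ranks 1545 and 2267) and after it in replicate 2 (2122 and 2097).

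**Figure D3:**
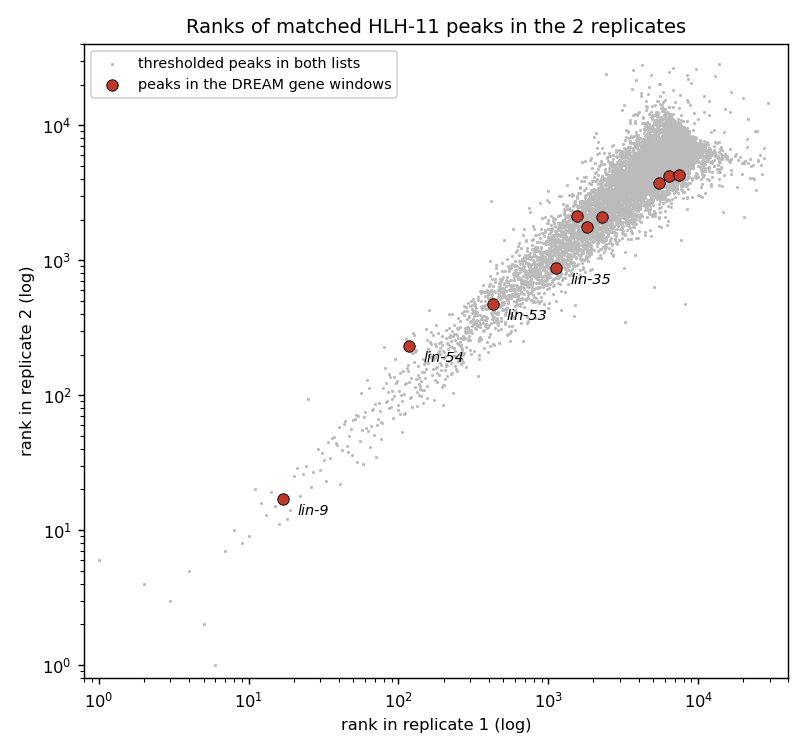
Rank in replicate 1 (horizontal axis) against rank in replicate 2 (vertical axis), both log scale, for the 7508 thresholded peaks with a summit within 100 bp in both whole replicate lists (grey) and the 10 of them in the DREAM windows (red, the 4 strongest named). The DREAM peaks lie along the diagonal with the others, from rank 17 in both replicates at lin-9 to 7404 and 4289 at the weakest.

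Sharing with neighbouring genes was the rule. Of the 11 peaks, 10 also lay in the window of at least 1 other protein-coding gene, and over all 6874 thresholded peaks in a window 36.1% did so for 2 or more genes. The main lin-9 peak also lay in the window of unc-32, 1308 bp upstream of its start. The lin-54 peak lay in the windows of tag-115, JC8.4 and the small nucleolar RNA gene JC8.15, and the lin-53 peak in that of T05F1.2. The intronic lin-9 peak lay in the windows of the piRNA gene 21ur-13808 and of the pseudogenes WBGene00014987 and WBGene00194716. ZK632.11 has 3 lin-52 peaks in its window, and the non-coding gene ZK637.19 starts 246 bp from the upstream lin-9 peak. The nearest protein-coding start was that of the DREAM gene for 5 of the 11. These were the main peaks of lin-9, lin-35, lin-53 and efl-1 and the intronic peak of lin-9. With each peak given to the nearest start alone, the count of DREAM genes with a peak went from 6 to 4, beside 22.3% in place of 32.4% of all protein-coding genes, since lin-54 lost its peak to rpl-12 and lin-52 its peaks to ZK632.9 and ZK632.10. By annotation, 8 summits lay in intergenic sequence, 2 in introns and 1 in a 5' UTR. The strongest summit of a gene was in its promoter window at 5 of the 6 genes, 176 to 362 bp upstream of the start, and lin-52 was the other. Promoter summits were common in general. Of all protein-coding genes, 6481 had a thresholded summit in the gene window and 4254 in the promoter window. Shares over all thresholded peaks were not computed for the nearest start, the annotation or the strongest summit. Nothing particular to the DREAM peaks is therefore read from these counts.

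Genes of related function also often carried HLH-11 peaks. Over 62 genes of 6 lists, 37 (59.7%) had a thresholded summit in the gene window, beside the 32.4% of all protein-coding genes, and 27 (43.5%) in the promoter window, beside 21.3%. The lists were chosen with earlier results of these data known and were not tested, so nothing is read from these differences. In all, 55 distinct peaks account for the 37 genes, and neighbouring genes can share one. The rba-1 peak among them is the DREAM peak upstream of lin-53. Among the strongest 3931 thresholded peaks the count was 23 of 62, beside 19.9% of all protein-coding genes. With genes that lack a summit placed last, their median best rank was 5953.5, beside 1361 over the DREAM genes. The DREAM genes were chosen with their peaks known, so nothing is read from that difference.

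Among other synMuv B genes, 5 of 10 had a summit, led by genes of zinc-finger type proteins, lin-36 (signal 539, rank 734, 241 bp upstream), lin-13 (291, rank 2064) and lin-15B (195, rank 3574). The count was 3 among the strongest 3931 peaks (beside 19.9% of all protein-coding genes) and 8 with a reach of 5000 bp (beside 39.0%). hpl-2, lin-61, met-2, lin-65 and arle-14 had none in the gene window. Of the synMuv A genes 2 of 4 had a summit. The count was 1 among the strongest 3931 peaks (beside 19.9% of all protein-coding genes) and 1 by nearest start alone (beside 22.3%). The 2 genes were lin-56 (497, rank 854) and lin-8 (139, rank 5245), at 2411 and 1949 bp upstream. In the promoter window 0 of 4 had a summit. All 4 synMuv C genes, which encode a histone acetyltransferase complex, had a summit. However, 2 did among the strongest 3931 peaks (beside 19.9% of all protein-coding genes) and 1 by nearest start alone (beside 22.3%). The 4 were epc-1, the Enhancer of Polycomb homologue (1050, rank 159, 191 bp upstream, ranks 150 and 176 in the replicates), trr-1 (241, rank 2747), mys-1 (140, rank 5180) and ssl-1 (89.4, rank 7778). No summit within 100 bp was found for mys-1 in replicate 1, and the ssl-1 peak ranked 11851 there.

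Genes of the NuRD and MEC chromatin complexes had a summit at 6 of 7, beside 32.4% of all protein-coding genes. The count was 4 among the strongest 3931 peaks (beside 19.9% of all protein-coding genes) and 5 by nearest start alone (beside 22.3%). The 6 were led by rba-1, whose peak is the one upstream of lin-53, and by mep-1 (437, rank 1071, 203 bp upstream) and lin-40 (340, rank 1622). The histone deacetylase gene hda-1 had none. Other E2F and cell cycle genes had a summit at 12 of 22, beside 32.4% of all protein-coding genes. The count was 9 among the strongest 3931 peaks (beside 19.9%) and 9 by nearest start alone (beside 22.3%). The strongest were at cyd-1, which encodes cyclin D (634, rank 526, 141 bp upstream), fzr-1, an activator of the anaphase-promoting complex (612, rank 563, 1768 bp upstream), and lin-23, an F-box protein of cyclin turnover (500, rank 846). The related E2F gene efl-3 was next (461, rank 975), while efl-2 and the 4 cdc-25 genes had none. DNA replication genes, textbook targets of E2F, had a summit at 8 of 15. The count was 4 among the strongest 3931 peaks (beside 19.9% of all protein-coding genes) and 5 by nearest start alone (beside 22.3%). The 8 genes were led by pcn-1, the PCNA gene (671, rank 468, 249 bp upstream), mcm-4 (261, rank 2428) and orc-2 (256, rank 2496).

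**Figure D4:**
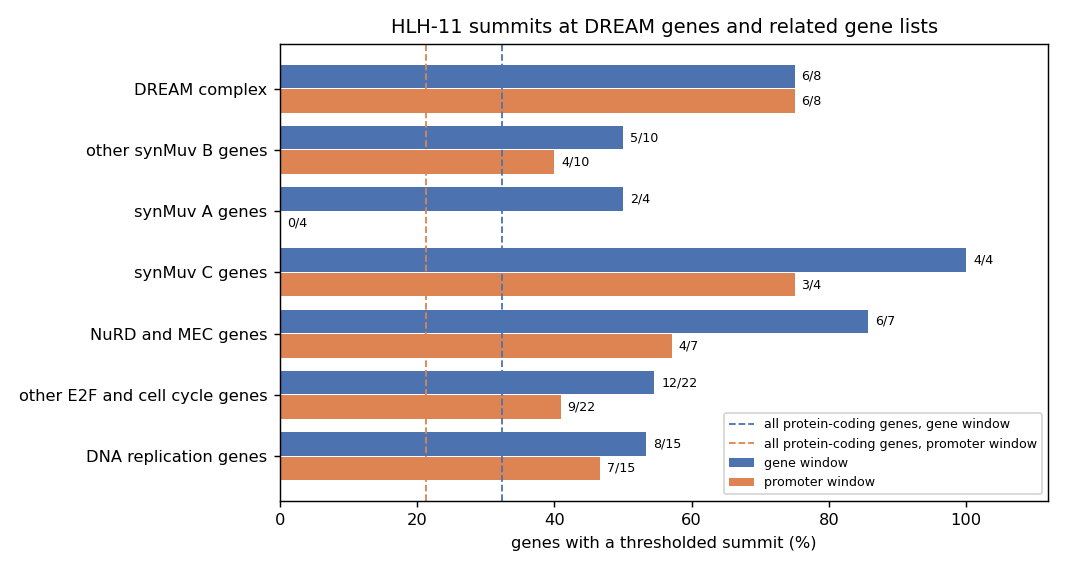
Percentage of genes (horizontal axis, from 0) with a thresholded HLH-11 summit in the gene window (blue) and in the promoter window (orange) for the DREAM genes and 6 related lists, with the number of genes at each bar; dashed lines mark all protein-coding genes, at 32.4% and 21.3%. The DREAM genes reached 6 of 8 in both windows, and the synMuv A genes 2 of 4 in the gene window and 0 of 4 in the promoter window.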

How the data were processed

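The authors deposited 4 narrowPeak lists on build ce11: 1 for each replicate, 1 for the pooled replicates and 1 thresholded by IDR. Per the notes the authors deposited with them, the replicate and pooled lists derive from alignments with a control that was not analysed here, and the thresholded list from the other 3. The sources used here name neither aligner nor peak caller. Each deposited list gives a signal per peak, and the deposited summit offset, a column with no other unit, gave the summit (start plus column 10). There are no read counts, so depth is unknown and no counting interval can be given. Per the labels, chromatin was sonicated to 200 to 800 bp.

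Genes came from the Ensembl release 115 annotation of WBcel235 and bases from the RefSeq genome of that assembly. No peak reached past a chromosome end of that genome. Peaks were ranked by signal within each list and placed by summit with Python 3.11.15 and pandas 2.3.3. The placement, matching and motif steps were tested on simulated data. No statistical test was run, because the 8 genes and the related lists were chosen with earlier results of these data known. Named are the 8 genes, the neighbours whose windows share a peak, and the peaks 2 ranks above and below that of lin-9. The top 3 genes of each list by signal are named too. Added after their values were seen were hpl-2, lin-61, met-2, lin-65, arle-14, ssl-1, hda-1, efl-3, efl-2, cdc-25 and rps-19.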

Additional observations from a re-analysis of the deposited data

How the results depend on the processing

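The count of DREAM genes with a thresholded summit was between 4 and 7 under every alternative tried. Using the strongest 3931 thresholded peaks left 7 distinct peaks in place of 11 in the windows, 19.9% in place of 32.4% of all protein-coding genes, and 23 in place of 37 of the related genes. That share of all genes was 23.9% with 1000 bp upstream, 39.0% with 5000 bp and 33.9% with any overlap of peak and window. It was 32.0% without replicate 1 and 33.2% without replicate 2, and 22.3% by nearest start alone, an alternative chosen after seeing the data. The rank of the lin-9 peak was 17 in place of 18 with either replicate left out. A motif reach of 25 bp left CAGCTG at 0, any E-box at 2 and E2F-type or CHR-type sequences at 1 of the 11 peaks, in place of 1, 7 and 4, by a narrower search. The shares of all thresholded peaks went from 4.34% to 2.07%, from 44.1% to 24.9% and from 19.4% to 9.17%. The cause of the other shifts was not tested. Of 36 recounts of single related lists, 9 moved by over 1.5 times, all of them in the synMuv A, B or C or DNA replication genes. Of these, 8 are given with the lists, and the other is 0 synMuv A genes with 1000 bp upstream. Read depth is unknown.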

Other observations

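Beyond the gene windows, the next thresholded summit upstream of lin-53 was one of the strongest near any DREAM gene, with a signal of 1330 and rank 75. It spans 9625879 to 9626258 on chromosome I, 6313 bp upstream of lin-53. The summit lay 168 bp upstream of hsr-9, which encodes a 53BP1-like protein of the DNA damage response. The gene rps-19 also starts close by, between lin-53 and this summit, so by position the peak cannot be given to hsr-9 alone. For lin-54, by contrast, the next thresholded summit upstream lay 114846 bp away, with a signal of 90.5 and rank 7711.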
